A study of Mus musculus with 12 samples.

Results

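The 36 genes described here encode the glucose transporters and enzymes of glycolysis, the enzymes and transporters that handle lactate, the kinases that hold pyruvate back from the mitochondria, and genes of the response to low oxygen. They were chosen by name as a module of glycolysis and hypoxia genes, with earlier results of these data known. All 36 were found among the 23700 loci listed in the expression files. Expression was measured by RNA sequencing in 10 libraries of primary CD4+ T cells, taken from the spleen and the lymph nodes of C57BL/6J mice, whose ages are not given. Binding of Bach2, a transcriptional repressor of the CNC family, was mapped by chromatin immunoprecipitation (ChIP) in 1 library with 1 input. According to its design text, the study asked what Bach2 does in induced regulatory T (iTreg) cells by setting deficient against wild type cells and by comparing both with naive and helper cells.

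All cells began as sorted naive CD4+ T cells that were CD44-, CD25- and CD62L+. Bach2-deficient (Bach2KO) iTreg cultures gave 3 libraries and wild type (WT) iTreg cultures gave 3, both grown for 3 days on plate-bound antibodies to CD3 and CD28 (10 µg/ml each) with IL-2 at 100 IU/ml and human TGF-β1 at 5 ng/ml. WT cultures under the same antibodies for 3 days gave 1 library each of Th1 cells (IL-12 at 20 ng/ml, IL-4 neutralized), Th2 cells (IL-4 at 20 ng/ml, IFN-γ neutralized) and Th17 cells (IL-6 at 20 ng/ml, human TGF-β1 at 2 ng/ml, IFN-γ and IL-4 both neutralized), with each neutralizing antibody at 10 µg/ml. IL-2 was added in the iTreg condition alone, so the helper cultures differ from the iTreg cultures in more than 1 factor. Freshly sorted WT naive cells gave 1 library. The ChIP and its input came from WT iTreg cultures. Neither the part of Bach2 that was deleted nor whether the 3 libraries of a genotype came from separate animals or cultures is stated, so the p-values measure only the spread between these libraries, which may be technical.

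Glycolysis splits glucose into pyruvate in the cytosol and yields ATP without oxygen, and the enzyme lactate dehydrogenase turns that pyruvate into lactate, which leaves the cell through monocarboxylate transporters. Resting T cells rely mostly on mitochondrial respiration, and stimulated T cells raise glucose uptake and lactate output even when oxygen is present. Many of these genes are targets of the hypoxia-inducible factor HIF, whose alpha subunit is marked for destruction by prolyl hydroxylases when oxygen is available, and of Myc. Regulatory T cells are known for using less glycolysis than helper cells, and HIF is known to favour Th17 over regulatory differentiation in mouse cultures.

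The values are FPKM, sequenced fragments scaled to transcript length and to library size, and differences are given on log2(FPKM + 0.5), a scale that understates changes of genes near 0. Bach2 itself was at 3.91, 3.39 and 4.12 FPKM in the Bach2KO libraries, against 17.9, 17.7 and 17.2 FPKM in the WT iTreg libraries. The fall was 2.08 in log2 units (log2 −2.08, SE 0.0743, adjusted p = 4.4e-06 in limma with Benjamini-Hochberg). The CD4+ T cell label was met in every library, with the T cell receptor complex gene Cd3e at 154.8 ± 6.46 FPKM in Bach2KO and 223.9 ± 1.94 FPKM in WT iTreg libraries (SD, n = 3 each). Cd3e was at 242, 199, 235 and 196 FPKM in the Th1, Th2, Th17 and naive libraries. Of 8 CD4 T cell markers 5 were called lower in Bach2KO and 0 higher, Tcf7 furthest, at 211 FPKM in Bach2KO and 581 FPKM in WT. With quantile normalization or equal sums, both described below, 7 were called lower. Summed FPKM of 16 proliferation markers lay between 1476 and 1587 in Bach2KO and between 159.2 and 182.4 in WT libraries, and all 15 tested markers rose in Bach2KO. B cell markers summed to 13.3 to 20.3 FPKM in Bach2KO and 11.6 to 65.9 FPKM in WT libraries, and dendritic cell and MHC class II markers to at least 153.2 FPKM in Bach2KO and 29.2 to 248.1 FPKM in WT libraries. Myeloid markers summed to at most 0.684 FPKM in Bach2KO and 7.97 FPKM in WT libraries, with S100a8 and S100a9 at 0 in all 6. The 2 tested, Itgam and Fcgr3, were both called lower in Bach2KO. Itgam averaged 0.143 FPKM in Bach2KO and 3.70 FPKM in WT, and Fcgr3 averaged 0.215 FPKM in Bach2KO and 3.65 FPKM in WT. Their log2 differences were −2.70 and −2.54 (limma with Benjamini-Hochberg, adjusted p = 1.2e-05 and 7.1e-06). The dendritic cell factor gene Zbtb46 was higher in Bach2KO, at 3.00 ± 0.539 FPKM against 0.235 ± 0.130 FPKM in WT (SD, n = 3 each). It was the only gene called among 5 tested dendritic cell and MHC class II markers. Not called were H2-Aa and H2-Eb1, with log2 differences of −0.36 and −0.35, and H2-Ab1 and Cd74, with 0.21 and 1.17. Of 5 CD8 and NK cell markers, which summed to 11.1 to 12.1 FPKM in Bach2KO and 4.51 to 5.47 FPKM in WT libraries, Cd8a and Cd8b1 were tested and both rose. Cd8a averaged 2.23 FPKM in Bach2KO and 0.0925 FPKM in WT, and Cd8b1 averaged 9.19 FPKM in Bach2KO and 4.91 FPKM in WT. The WT means of Zbtb46 and Cd8a were under the filter of 0.5 FPKM described below, so both were tested only through their Bach2KO values. In turn the Bach2KO means of Itgam and Fcgr3 were under it, so both were tested only through their WT values. Genes that pass in this way can hardly be called higher, so these falls are not a result about myeloid markers. The NK cell genes Klrb1c, Ncr1 and Klre1 had group means of at most 0.0583 FPKM. The part of these other cells, or of cell division, in the results was not tested, and in bulk RNA fewer cells that express a gene and less RNA per cell cannot be told apart.

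Depth was estimated from the confidence bounds deposited beside the FPKM values, which imply 20.1 to 24.0 M reads in Bach2KO, 18.2 to 19.1 M in WT iTreg, 13.9 M in Th1, 14.0 M in Th2, 12.4 M in Th17 and 18.5 M in the naive library over genes with a single start site. Only uniquely aligned reads were used, per the labels' protocols. Gapdh, Ldha, Pgk1, Eno1, Pgam1, Tpi1, Aldoa and Mif are known to have processed pseudogene copies with near-identical sequence, so their levels are uncertain and may be understated. Differences between libraries of the same gene share that limit.

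Bach2KO iTreg cells held several-fold more transcript of nearly every step of glycolysis than WT iTreg cells. The 36 genes summed to 5531, 4960 and 6416 FPKM in the Bach2KO libraries, against 982.1, 939.5 and 1073 FPKM in the WT libraries. That was 1.01, 0.895 and 1.18% of all FPKM in Bach2KO, against 0.226, 0.215 and 0.248% in WT. Of the 36 genes, 30 rose, 3 fell and 3 were not called (limma with Benjamini-Hochberg at 0.05). Over all 11403 loci tested, 41.1% were called higher and 33.6% lower. A rise of at least 2-fold was called for 29 of the 36, beside 14.7% of all loci, and 9 genes rose by at least 3 on the log2 scale. The median difference was 2.15 over the 36 genes and 0.07 over all loci tested.

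All 3 Bach2KO libraries stood above all 3 WT libraries in 30 of the 36 genes and below them in 4, beside 43.4% and 35.9% of all loci. The filter asked for an average of 0.5 FPKM or more in the 6 iTreg libraries and passed all 36, although Hk2 passed it through Bach2KO, since its WT mean was 0.493 FPKM. The scaling of the libraries moved the split over all loci, which was 4682 higher to 3828 lower as deposited. Quantile normalization gave 3710 to 4837, and setting equal sums (over loci no shorter than 300 bp) gave 3250 to 5393. The median of all loci was 0.07, −0.09 and −0.18 under these scalings in turn. Under both added scalings 29 of the 36 genes rose and 4 fell, with medians of 2.00 and 1.89. A rise of at least 2-fold was called for 26 of the 36 under quantile normalization, beside 1354 of 11403 loci. With equal sums it was called for 25, beside 1228 of 11399 loci.

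**Figure D1:**
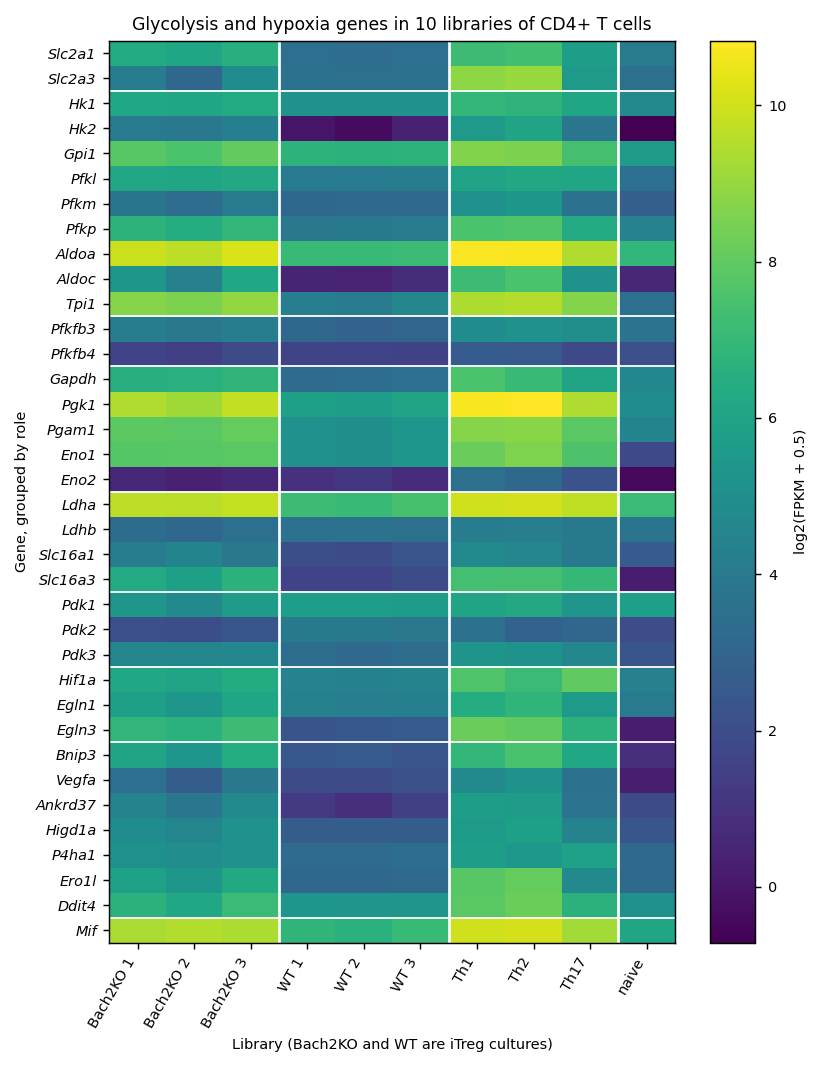
Heat map of log2(FPKM + 0.5) for the 36 genes (rows, grouped by role) in 10 libraries (columns, with iTreg Bach2KO left of iTreg WT, then Th1, Th2, Th17 and naive). The 3 WT iTreg columns look much like the naive column, while the 3 Bach2KO columns are brighter for most genes, with summed FPKM of 4960 to 6416 in Bach2KO and 939.5 to 1073 in WT.

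Of the 2 glucose transporter genes Slc2a1 was called and Slc2a3 was not, and the difference between their changes was not tested. Slc2a1, which encodes the transporter GLUT1, was at 80.4, 68.1 and 94.0 FPKM in the Bach2KO libraries, against 10.9, 10.3 and 10.9 FPKM in the WT libraries. Every Bach2KO library was above every WT library, and the rise was 2.85 (SE 0.116, limma with Benjamini-Hochberg, adjusted p = 6.8e-06). Slc2a3, which encodes GLUT3, was at 17, 8.39 and 29.4 FPKM in Bach2KO, against 11.6, 11.2 and 11.4 FPKM in WT. Bach2KO replicate 2 was below the WT libraries and both others were above them, so the groups overlapped and the difference of 0.49 was not called (SE 0.415, limma with Benjamini-Hochberg, adjusted p = 0.32). Without Bach2KO replicate 2 it was 0.94 and was called (limma with Benjamini-Hochberg, adjusted p = 0.012).

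In the upper part of the pathway all 9 genes rose, and the median difference was 2.73. Hexokinases trap glucose in the cell as glucose 6-phosphate, and the inducible form Hk2 was at 16.6, 14.5 and 18.6 FPKM in Bach2KO, against 0.447, 0.261 and 0.772 FPKM in WT. The groups lay far apart, and the rise was 4.13 (SE 0.200, limma with Benjamini-Hochberg, adjusted p = 1.2e-05). These WT values rest on about 75, 43 and 133 reads. Hk1, the hexokinase found in most tissues, averaged 73.8 ± 5.92 FPKM in Bach2KO and 35 ± 0.970 FPKM in WT (SD, n = 3 each), a rise of 1.06.

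The largest rise among the 36 was that of Aldoc, the aldolase known mainly from brain. It was at 41.3, 19.2 and 70.8 FPKM in Bach2KO, against 0.908, 0.839 and 1.26 FPKM in WT. The groups did not overlap, but the Bach2KO libraries themselves were far apart, and the rise was 4.71 (SE 0.451, limma with Benjamini-Hochberg, adjusted p = 1.7e-04). Aldoa, the common aldolase gene, averaged 979 ± 173 FPKM in Bach2KO, the highest mean of the 36, against 140.0 ± 3.42 FPKM in WT (SD, n = 3 each), and rose by 2.79. Tpi1, which interconverts the triose phosphates that aldolase makes, was at 428, 375 and 494 FPKM in Bach2KO, against 18.3, 15.8 and 24.1 FPKM in WT. No Bach2KO library was near the WT range, and the rise of 4.45 had an SE of 0.172 (limma with Benjamini-Hochberg, adjusted p = 5.7e-06).

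Phosphofructokinase, the committing step of glycolysis, is built from subunits encoded by Pfkl, Pfkp and Pfkm. Pfkp averaged 104 ± 17.5 FPKM in Bach2KO and 15.2 ± 0.732 FPKM in WT, and Pfkl 70.9 ± 5.52 FPKM in Bach2KO and 16.9 ± 0.841 FPKM in WT (SD, n = 3 each). They rose by 2.73 and 2.03, while the muscle-type subunit gene Pfkm, at 12.9 ± 2.83 FPKM in Bach2KO and 8.96 ± 0.383 FPKM in WT, rose by 0.48 (limma with Benjamini-Hochberg, adjusted p = 0.03). Pfkm lost its call under both other scalings, with differences of 0.36 and 0.22 (limma with Benjamini-Hochberg, adjusted p = 0.081 and 0.25), and on leaving out Bach2KO replicate 1 or any 1 WT library. Gpi1, the isomerase between hexokinase and phosphofructokinase, averaged 226 ± 35.6 FPKM in Bach2KO and 105 ± 1.85 FPKM in WT, a rise of 1.09.

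Bifunctional enzymes set the level of the sugar phosphate that switches phosphofructokinase on, and of their genes Pfkfb3 and Pfkfb4 are among the 36. Of the others, Pfkfb2 averaged 2.91 FPKM in Bach2KO and 7.00 FPKM in WT and fell by 1.14, and Pfkfb1 was not called. Pfkfb3, the form of proliferating cells, was at 17, 14.4 and 17.7 FPKM in Bach2KO, against 8.25, 6.95 and 7.78 FPKM in WT, and rose by 1.05 (SE 0.0978, limma with Benjamini-Hochberg, adjusted p = 1.6e-04). Pfkfb4 was at 2.59, 2.26 and 3.31 FPKM in Bach2KO, against 2.63, 2.5 and 2.44 FPKM in WT. The Bach2KO libraries lay on both sides of the WT libraries, and the difference of 0.08 was not called (SE 0.127, limma with Benjamini-Hochberg, adjusted p = 0.61) and turned negative under either other scaling.

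Of the 5 genes of the lower part, 4 rose and 1 fell. Pgk1, the first enzyme of the pathway to return ATP, was at 706, 580 and 867 FPKM in Bach2KO, against 57.5, 51.3 and 65.5 FPKM in WT. The Bach2KO libraries were all far above the WT range, and the rise was 3.60 (SE 0.163, limma with Benjamini-Hochberg, adjusted p = 9.7e-06). Gapdh, which oxidizes glyceraldehyde phosphate and is often used as a constant reference, was at 93.8, 96.2 and 115 FPKM in Bach2KO, against 9.52, 10.4 and 10.9 FPKM in WT. Its groups were also well separated, and the rise of 3.24 had the smallest adjusted p of the 36 (SE 0.0919, limma with Benjamini-Hochberg, adjusted p = 2.2e-06). Pgam1, the mutase that follows, averaged 251 ± 24.1 FPKM in Bach2KO and 35.9 ± 4.40 FPKM in WT and rose by 2.79.

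The 2 enolase genes moved in opposite directions. Eno1, the enolase of most tissues, averaged 226 ± 6.67 FPKM in Bach2KO and 35.7 ± 4.35 FPKM in WT (SD, n = 3 each), a rise of 2.65 with an SE of 0.0881. Eno2, the enolase of neurons, was at 1.05, 0.755 and 0.993 FPKM in Bach2KO, against 1.39, 1.73 and 1.21 FPKM in WT. All Bach2KO libraries were below all WT libraries, by a small margin, and Eno2 fell by 0.43 (log2 −0.43, SE 0.140, limma with Benjamini-Hochberg, adjusted p = 0.03). These values rest on between 60 and 130 reads per iTreg library, and the call was lost on leaving out Bach2KO replicate 2, Bach2KO replicate 3, WT replicate 1 or WT replicate 2.

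**Figure D2:**
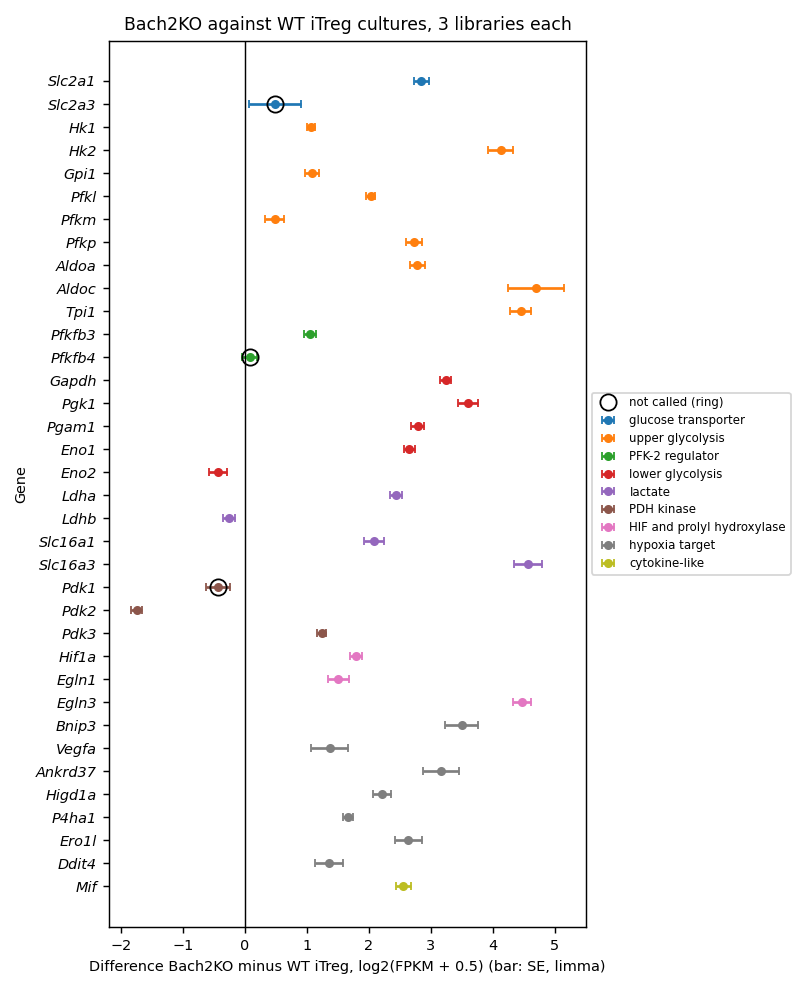
Difference in log2(FPKM + 0.5) between Bach2KO and WT iTreg libraries (x axis, 3 libraries each, bars are SE from limma) for each of the 36 genes (y axis, coloured by role), with rings around genes that were not called. Points run from −1.75 for Pdk2 to 4.71 for Aldoc, and Slc2a3, Pfkfb4 and Pdk1 carry the 3 rings.

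Genes for making and exporting lactate rose, apart from Ldhb. Ldha, whose subunit favours the step from pyruvate to lactate, was at 810, 796 and 886 FPKM in Bach2KO, against 147, 137 and 175 FPKM in WT. The groups were well apart and the rise was 2.44 (SE 0.1, limma with Benjamini-Hochberg, adjusted p = 7e-06). Ldhb, the heart-type subunit, was at 9.66, 8.41 and 10.8 FPKM in Bach2KO, against 11.6, 11.8 and 11.2 FPKM in WT. Its groups did not overlap but nearly touched, and it fell by 0.26 (log2 −0.26, SE 0.0903, limma with Benjamini-Hochberg, adjusted p = 0.041), a call lost on leaving out any 1 of the 6 libraries other than Bach2KO replicate 3.

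The lactate exporter gene Slc16a3 was at 79.7, 56.7 and 103 FPKM in Bach2KO, against 2.58, 2.57 and 3.25 FPKM in WT. Every Bach2KO library was more than an order of magnitude above the WT libraries, and the rise was 4.57 (SE 0.221, limma with Benjamini-Hochberg, adjusted p = 1.2e-05). Slc16a1, a transporter that carries lactate in either direction, averaged 17.9 ± 3.58 FPKM in Bach2KO and 3.82 ± 0.584 FPKM in WT (SD, n = 3 each) and rose by 2.08.

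Pyruvate dehydrogenase kinases switch off the enzyme that lets pyruvate into the citric acid cycle, and of the 3 kinase genes 1 rose, 1 fell and 1 was not called. Pdk1, the kinase gene known as a HIF target, was at 41.2, 27.9 and 48.1 FPKM in Bach2KO, against 51.3, 53.9 and 49.3 FPKM in WT. All Bach2KO libraries were below the WT libraries, the third by a narrow margin, and the difference of −0.43 was not called (SE 0.192, limma with Benjamini-Hochberg, adjusted p = 0.086). It was called under quantile normalization (−0.64), with equal sums (−0.70) and without Bach2KO replicate 3 (−0.59), at limma adjusted p = 0.026, 0.017 and 0.023 with Benjamini-Hochberg adjustment.

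Pdk2 was at 3.81, 3.67 and 4.63 FPKM in Bach2KO, against 15.1, 14.9 and 14.0 FPKM in WT. The WT libraries were all far higher, and Pdk2 fell by 1.75 (log2 −1.75, SE 0.0902, limma with Benjamini-Hochberg, adjusted p = 1.5e-05). No other gene of the 36 fell 2-fold or more. Pdk3 was at 23.4, 23.4 and 24.9 FPKM in Bach2KO, against 10.4, 8.90 and 10.3 FPKM in WT, and rose by 1.24 (SE 0.0701, limma with Benjamini-Hochberg, adjusted p = 2.1e-05). Summed over the 3 kinases, the level lay between 55.0 and 77.6 FPKM in Bach2KO and between 73.6 and 77.6 FPKM in WT, and these ranges overlapped.

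The HIF alpha subunit gene Hif1a and the prolyl hydroxylase genes Egln1 and Egln3 rose, while the hydroxylase genes Egln2 and Hif1an, which are not among the 36, fell. Hif1a was at 73.1, 64.4 and 83.0 FPKM in Bach2KO, against 20.5, 20.1 and 21.4 FPKM in WT, with no overlap and a rise of 1.80 (SE 0.0936, limma with Benjamini-Hochberg, adjusted p = 1.6e-05). HIF activity is set mainly at the protein, which these data do not measure. Egln3, a prolyl hydroxylase gene that is itself a HIF target, was at 116, 101 and 147 FPKM in Bach2KO, against 4.39, 5.03 and 5.42 FPKM in WT. Its groups stood far apart, and it rose by 4.47 (SE 0.146, limma with Benjamini-Hochberg, adjusted p = 3.4e-06). Egln1, the main oxygen-sensing hydroxylase, was at 56.1, 41.7 and 67.3 FPKM in Bach2KO, against 19.1, 18.2 and 18.6 FPKM in WT, and rose by 1.51 (SE 0.166, limma with Benjamini-Hochberg, adjusted p = 3.2e-04). Egln2, the remaining HIF prolyl hydroxylase gene, was at 23.5, 23.9 and 24.8 FPKM in Bach2KO, against 33.3, 33.5 and 31.8 FPKM in WT, and fell by 0.44 (SE 0.0418, limma with Benjamini-Hochberg, adjusted p = 1.7e-04). Hif1an, whose product hydroxylates an asparagine of HIF, averaged 10.2 ± 0.424 FPKM in Bach2KO and 18.5 ± 0.518 FPKM in WT (SD, n = 3 each) and fell by 0.84.

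All 7 hypoxia target genes rose, with a median of 2.21. Bnip3, which directs mitochondria to autophagy, was at 64.2, 40.5 and 87.0 FPKM in Bach2KO, against 4.85, 5.57 and 4.47 FPKM in WT. The lowest Bach2KO library was well above the highest WT library, and the rise was 3.5 (SE 0.270, limma with Benjamini-Hochberg, adjusted p = 7.1e-05). Ankrd37, an ankyrin repeat gene known as a HIF target, was at 21.1, 13.6 and 27.8 FPKM in Bach2KO, against 1.90, 1.29 and 2.29 FPKM in WT, and rose by 3.16 (SE 0.287, limma with Benjamini-Hochberg, adjusted p = 1.4e-04).

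Vegfa, the vascular growth factor gene, was at 10.9, 5.98 and 14.6 FPKM in Bach2KO, against 3.29, 3.42 and 3.87 FPKM in WT. Bach2KO replicate 2 came closest to the WT libraries without reaching them, and the rise was 1.37 (SE 0.300, limma with Benjamini-Hochberg, adjusted p = 0.0065). Ero1l, an oxidase that forms disulfide bonds in the endoplasmic reticulum, averaged 58.9 ± 18.2 FPKM in Bach2KO and 8.76 ± 0.341 FPKM in WT, and rose by 2.64. The mitochondrial gene Higd1a rose by 2.21, the collagen prolyl hydroxylase gene P4ha1 by 1.67 and Ddit4, an inhibitor of mTOR signalling, by 1.36. Mif, a cytokine-like gene that HIF is known to induce, was at 657, 718 and 676 FPKM in Bach2KO, against 112, 99.7 and 138 FPKM in WT, and rose by 2.56 (SE 0.120, limma with Benjamini-Hochberg, adjusted p = 1.1e-05).

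Among themselves the WT libraries differed in B cell and MHC class II markers, which were lowest in WT replicate 2, so the comparison was repeated with that library as the only WT one. That fit takes its spread from the 3 Bach2KO libraries alone and assumes that the lone WT library varies like them. The tested B cell markers had a median difference of 0.24 there, against −1.16 with all 3 WT libraries. The dendritic cell and MHC class II markers were less even in that fit, with a median of 1.98, against 0.21 with all 3. Cd74 was at 16.3 FPKM in WT replicate 2 and at 97.7 to 125 FPKM in Bach2KO, so a difference in other cells was not removed. The median difference in that fit was 2.23 over the 36 genes and 0.10 over all loci tested. Vegfa and Ddit4 kept their sizes, 1.4 and 1.39, but were not called (limma with Benjamini-Hochberg, adjusted p = 0.088 and 0.05), and neither were Pfkm or Ldhb.

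The spread among the Bach2KO libraries followed 1 pattern. Replicate 2 was the lowest of the 3 in 32 of the 36 genes and replicate 3 the highest in 33, with both in 31. Over all loci tested, replicate 2 was lowest in 39.3% and both held in 27.2%. The exceptions were Gapdh, Eno1, Slc16a1, Mif and Eno2. The ratio of the highest to the lowest Bach2KO library had a median of 1.4 over the 36 genes and 1.16 over all loci, while among the WT libraries the medians were 1.13 and 1.11.

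Among the Bach2KO libraries the widest spreads were those of Aldoc, Slc2a3 and several HIF targets, and the narrowest those of Eno1 and Pdk3. Myc, which encodes a factor that activates glycolysis genes, had its highest value in Bach2KO replicate 2, at 66.5, 107 and 49.9 FPKM in Bach2KO, against 23.6, 22.1 and 27.7 FPKM in WT. The order of the Bach2KO libraries was thus reversed in Myc. What distinguishes the 3 Bach2KO libraries is not given in the labels, and the part of any such difference in the results was not tested. Without Bach2KO replicate 2, 31 of the 36 genes were called higher and 1 lower, beside 4678 and 3909 of 11393 loci (limma with Benjamini-Hochberg). Without replicate 3, 30 were called higher and 3 lower, beside 4601 and 3730 of 11360 loci (limma with Benjamini-Hochberg). In that last fit Pdk1 was among the lower genes and Eno2 no longer was.

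**Figure D3:**
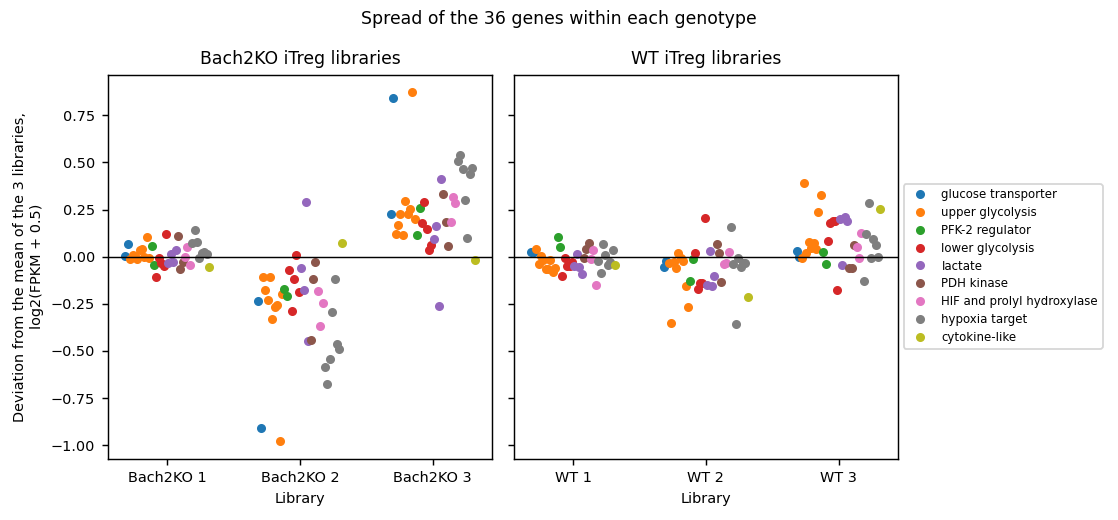
Deviation of each library from the mean of its 3 iTreg libraries in log2(FPKM + 0.5) (y axis) for the 36 genes (points, coloured by role), with Bach2KO libraries in the left panel and WT libraries in the right. Most points of Bach2KO 2 lie below 0 and most of Bach2KO 3 above it, and replicate 2 was lowest in 32 and replicate 3 highest in 33 of 36 genes. The WT points lie closer to 0.

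Across the helper conditions the same genes were high. Th1, Th2, Th17, Bach2KO iTreg and WT iTreg values were each set against the 1 naive library, so these 5 comparisons share their denominator and are given side by side without a test. At least 2-fold above naive were 33 of the 36 genes in Th1, beside 29.1% of the loci compared, 32 in Th2, beside 27.6%, and 32 in Th17 cells, beside 24.5%. None of the 36 was 2-fold lower in these cultures, where 9.87, 11.8 and 7.52% of loci were. In Bach2KO iTreg cells 28 of the 36 were 2-fold above naive, beside 27.1% of loci, and 0 were below, beside 6.24%. In WT iTreg cells it was 8 of 35 above, beside 17.1%, and 1 below, beside 3.82%, with Hk2 under the filter of that comparison.

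The median difference from naive over the genes compared was 3.19 in Th1, 3.32 in Th2, 2.16 in Th17, 2.33 in Bach2KO iTreg and 0.25 in WT iTreg cells. Over all loci compared those medians were 0.37, 0.29, 0.35, 0.41 and 0.32. WT iTreg cells were thus near naive cells for most of the 36 genes. The summed level was 10330 FPKM in Th1, 10900 FPKM in Th2, 5260 FPKM in Th17 and 763.0 FPKM in naive cells, or 2.23, 2.31, 1.22 and 0.252% of all FPKM.

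Of the genes that did stand above naive in WT iTreg cells, Eno1 stood furthest, 3.32 higher on the log2 scale. Egln3 stood 2.23 higher, Pdk2 1.89, Vegfa 1.76, Slc16a3 1.56, Bnip3 1.54, Eno2 1.36 and Gpi1 1.07. The gene 2-fold lower was Gapdh, at −1.25, with 9.52 to 10.9 FPKM in WT iTreg and 25.0 FPKM in naive cells. Several of these differences rest on few naive reads, such as 21 for Eno2 and 56 for Egln3.

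The WT iTreg libraries formed the low end of the stimulated cultures. All 3 lay below the Th1, Th2 and Th17 libraries in 34 of the 36 genes, beside 31.3% of 11610 loci, and above them in 1, beside 31.0%. The gene above was Pdk2, at 14.0 to 15.1 FPKM in WT iTreg and at 11.4, 6.99 and 8.01 FPKM in Th1, Th2 and Th17 cells. Pdk1 was the other exception, with 49.3 to 53.9 FPKM in WT iTreg cells, between 38.7 FPKM in Th17 and 65.4 FPKM in Th1 cells.

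The Bach2KO libraries lay in the middle of that range. In 29 of the 36 genes all 3 stood above WT iTreg and below both Th1 and Th2, beside 11.3% of loci. All 3 lay above Th17 in 12 genes and below it in 8, beside 47.7% and 34.2% of loci, and on both sides of it in 16, beside 18.1%. None of the 36 had its Bach2KO libraries above all 3 helper libraries, where 27.6% of loci did. The 8 genes below all helper libraries were Eno2, Hif1a, Ldhb, P4ha1, Pdk2, Pfkfb3, Slc16a3 and Slc2a3, beside 16.3% of loci.

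The order of the transporter genes varied between conditions. Slc2a3 was at 461 FPKM in Th1 and 523 FPKM in Th2, at 44.4 FPKM in Th17, and at 11.1 FPKM in naive cells, and the Bach2KO iTreg libraries reached at most 29.4 FPKM. Slc2a1 was at 145 FPKM in Th1, 163 FPKM in Th2, 53.1 FPKM in Th17 and 15.4 FPKM in naive cells, and the Bach2KO iTreg libraries, at 68.1 to 94.0 FPKM, were above Th17. Per length the level of Slc2a3 was thus above that of Slc2a1 in Th1 and Th2 cells and below it in the Bach2KO libraries, while in Th17, naive and WT iTreg cells the levels of both genes lay closer together.

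Th17 cells had the lowest value of the 3 helper libraries in 31 of the 36 genes, beside 38.7% of loci. The gene that went furthest the other way was Hif1a, at 259 FPKM in Th17, 201 FPKM in Th1, 143 FPKM in Th2 and 19.3 FPKM in naive cells. Its WT iTreg values of 20.1 to 21.4 FPKM were close to naive. Ero1l spanned a wider range, with 26.6 FPKM in Th17, 225 FPKM in Th1 and 273 FPKM in Th2 cells. With 1 library per condition, none of these differences has a replicate check.

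**Figure D4:**
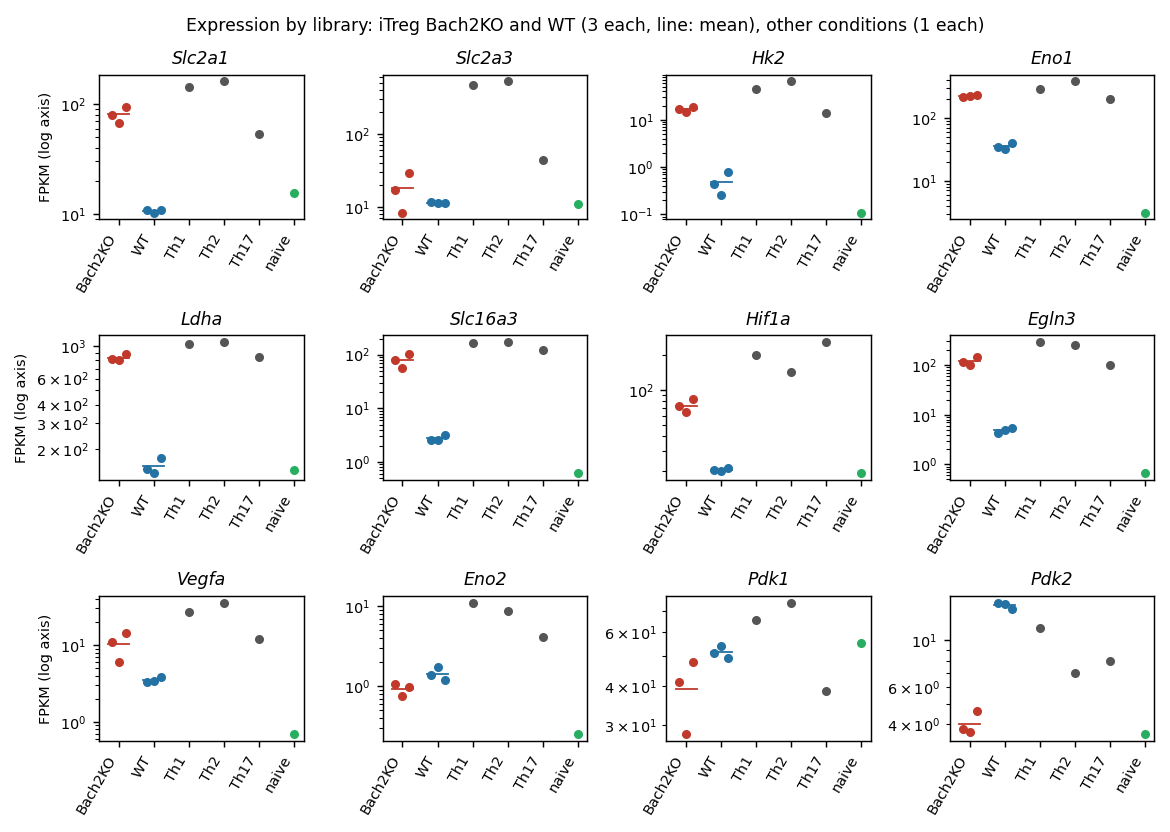
FPKM on a log axis (y) for 12 of the 36 genes in iTreg Bach2KO and WT (3 points each, line at the mean) and in single Th1, Th2, Th17 and naive libraries (x). Bach2KO points of Slc2a1, Hk2, Ldha, Slc16a3 and Egln3 lie between WT and Th1 or Th2, those of Slc2a3 lie on both sides of WT at 8.39 to 29.4 FPKM, and Pdk2 is lower in Bach2KO than in WT.

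Other genes of these pathways were counted over lists made by function, and those named from each list are mainly the ones with the largest called differences. The counts are to be read beside the 41.1% of all loci called higher and the 33.6% called lower. The pyruvate kinase gene Pkm (listed as Pkm2), which makes pyruvate, was at 961, 871 and 1099 FPKM in Bach2KO, against 172, 161 and 183 FPKM in WT, and rose by 2.5 (SE 0.0967, limma with Benjamini-Hochberg, adjusted p = 5.7e-06). Among 24 other glycolysis genes, 14 were tested, of which 5 rose and 5 fell (median 0.10), against 5 and 6 under quantile normalization (median −0.06) and 4 and 7 with equal sums (median −0.15). Shares of this size in both directions are near those of all loci and are not a result about these genes. Slc2a6, a hexose transporter gene, rose by 2.75, to 28.3 ± 3.86 FPKM in Bach2KO, against 3.77 ± 0.187 FPKM in WT, and Pgm2, a phosphoglucomutase gene, rose by 2.07. Of those that fell, Pfkfb2 fell by 1.14 and Bpgm, which diverts a glycolytic intermediate, fell by 1.01.

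All 7 pentose phosphate genes rose, with a median of 1.20, and with equal sums 6 of them did. Tkt, the transketolase gene, averaged 135 ± 7.43 FPKM in Bach2KO and 38.5 ± 3.79 FPKM in WT (SD, n = 3 each), a rise of 1.80. Pgd and Rpia, also of that pathway, rose by 1.39 and 1.21. Of 9 tested genes for pyruvate entry into mitochondria 6 rose and 1 fell, with a median of 0.30, and under quantile normalization 2 rose and 1 fell. Pdp2, the phosphatase that undoes the kinases, rose by 0.94 and Mpc1, a pyruvate carrier subunit (listed as Brp44l), by 0.55, while Pdha1, a pyruvate dehydrogenase subunit, fell by 0.27. The 3 tested gluconeogenesis genes rose, led by the pyruvate carboxylase gene Pcx at 2.23, and 2 of them did under either other scaling.

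Among 24 other HIF and hypoxia genes, 22 were tested, of which 12 rose and 4 fell (median 0.75), beside 41.1% and 33.6% of all loci, against 11 and 5 under quantile normalization and 11 and 6 with equal sums. Of the 22, 6 passed the filter only through Bach2KO, with a WT mean under 0.5 FPKM. Of these, Hif3a, Car9, P4ha2, Ak4 and Hmox1 were called higher, and Epas1 was not called. A gene that passes in this way can hardly be called lower, so the split of 12 to 4 is not a result about this list. Ak4, an adenylate kinase gene, was at 9.06, 7.35 and 11.7 FPKM in Bach2KO, against 0.128, 0.0900 and 0.381 FPKM in WT, a difference of 3.82. The transferrin receptor gene Tfrc rose by 3.05 and Bhlhe40, a repressor gene, by 2.71. Arnt, which encodes the partner subunit of HIF, was at 15.3, 13.4 and 14.7 FPKM in Bach2KO, against 20.8, 21.0 and 20.1 FPKM in WT, and fell by 0.50 (SE 0.0597, limma with Benjamini-Hochberg, adjusted p = 4.5e-04). Vhl, whose product marks HIF for destruction, was at 13.1, 10.8 and 14.6 FPKM in Bach2KO and at 13.1, 12.4 and 12.4 FPKM in WT, and was not called (0.01, limma with Benjamini-Hochberg, adjusted p = 0.94).

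Among 12 tested regulators of glycolysis genes 2 rose and 5 fell, beside 41.1% and 33.6% of all loci, with a median of −0.16, and 8 fell under either other scaling. Myc rose by 1.52 (SE 0.273, limma with Benjamini-Hochberg, adjusted p = 0.0027) and Rheb, an activator of mTOR, by 0.62. Txnip, which restrains glucose uptake, was at 125, 89.7 and 129 FPKM in Bach2KO, against 367, 366 and 341.5 FPKM in WT. The WT libraries were all far higher, and it fell by 1.66 (SE 0.142, limma with Benjamini-Hochberg, adjusted p = 1.1e-04). In the single libraries Txnip was at 131 FPKM in Th1, 64.0 FPKM in Th2, 168 FPKM in Th17 and 620 FPKM in naive cells.

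Bach2 binding near the 36 genes was as common as near other expressed genes. Of the 36 loci, widened by 10 kb, 22 overlapped at least 1 of the 22494 deposited peaks (61.1%), beside 58.8% of all loci tested, which is not a result about these genes. With loci widened by 2 kb the count was 19 (all loci 45.7%), with 50 kb 33 (84.5%), with a fold enrichment of at least 10 it was 19 (46.0%), with a score of at least 100 it was 18 (41.1%), and with a summit within 5 kb of the start 13 (30.5%). Of the 44 peaks concerned, 26 had their summit in an intron, 10 upstream, 8 downstream and 0 in an exon. Their median fold enrichment over the local background, the authors' own value for each peak, was 12.6, against 12.8 for all peaks. Of the 22 genes with a peak 21 rose and 1 was not called, and of the 14 without, 9 rose, 3 fell and 2 were not called. Over all loci 41.8% of those with a peak were called higher and 34.4% lower, and of those without 40.0% and 32.3%. The difference between the genes with and without a peak was not tested. A peak does not show which gene it acts on, and there was 1 ChIP library.

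A few of these peaks were strong. That of Pgk1, in an intron 2459 bp past the start, had a fold enrichment of 86.5, and 0.707% of all peaks had a higher one. Eno1 had a peak in an intron 2902 bp past its start with a fold enrichment of 56.8, exceeded by 2.95% of peaks, and Gpi1 had one of 50.0 upstream, at −3790 bp, exceeded by 4.33%. Bnip3 held an intronic peak of 32.8 at 2112 bp past its start. Aldoa held one of 25.9 at 1615 bp past the outermost of its 3 annotated starts, and its other starts lie further into the gene. Those of Higd1a (38.1) and Ddit4 (36.2) lay downstream of the genes, and 2 of the peaks near Gapdh lie inside the neighbouring gene Iffo1. The peak at Ldha was weak, at 6.52, with 94.6% of peaks above it.

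**Figure D5:**
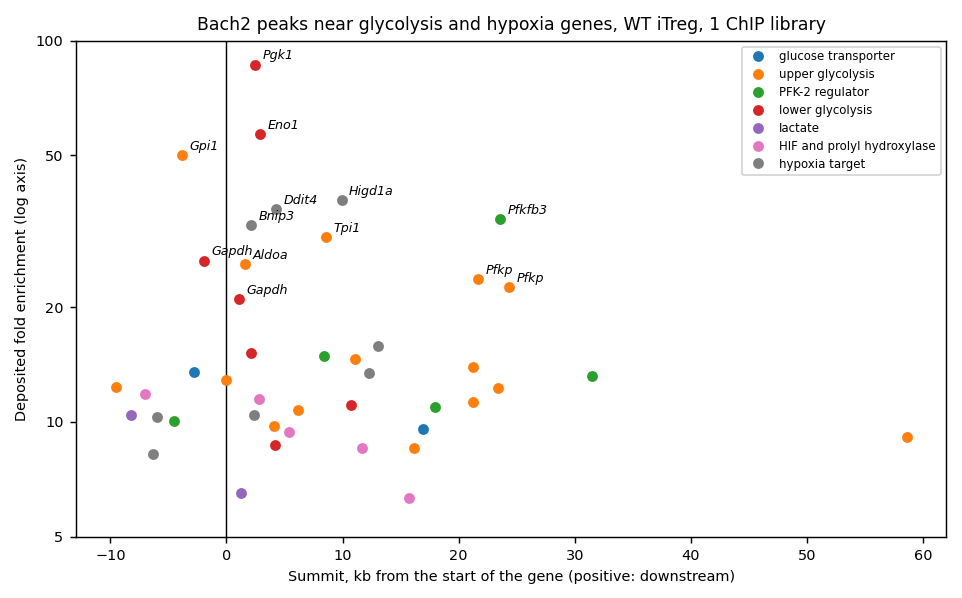
Position of the 44 Bach2 peak summits within 10 kb of the genes that had one (x axis, kb from the start of the gene, positive downstream) against the authors' fold enrichment on a log axis (y), coloured by role. The highest points are Pgk1 at 86.5, Eno1 at 56.8 and Gpi1 at 50.0, and most points lie between 8 and 20.

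The sequences under these strong peaks are shown because Bach2 and its small Maf partners recognize Maf elements whose core is TGAGTCA, the same letters that AP-1 factors bind. Each line is 151 bases centred on the summit, from the mouse genome build NCBIM37 (mm9) on the strand of the gene (plus for Eno1 and Pgk1, minus for Gpi1, Bnip3 and Aldoa), with TGAGTCA or its reverse complement TGACTCA in capitals.
Eno1 peak, chr4:149614133-149614283: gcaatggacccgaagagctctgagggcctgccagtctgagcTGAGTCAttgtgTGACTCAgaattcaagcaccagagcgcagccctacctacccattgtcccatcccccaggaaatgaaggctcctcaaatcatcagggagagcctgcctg
Gpi1 peak, chr7:35019039-35019189: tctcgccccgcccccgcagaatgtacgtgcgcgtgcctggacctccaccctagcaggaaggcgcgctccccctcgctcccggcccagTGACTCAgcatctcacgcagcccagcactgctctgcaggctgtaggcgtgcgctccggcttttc
Bnip3 peak, chr7:146099002-146099152: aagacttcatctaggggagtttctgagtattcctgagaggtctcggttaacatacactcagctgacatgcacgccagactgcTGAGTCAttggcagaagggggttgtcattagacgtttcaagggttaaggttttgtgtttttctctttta
Aldoa peak, chr7:133942271-133942421: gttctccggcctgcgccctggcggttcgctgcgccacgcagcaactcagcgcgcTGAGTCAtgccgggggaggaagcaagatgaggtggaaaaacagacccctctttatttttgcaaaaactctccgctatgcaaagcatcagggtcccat
Pgk1 peak, chrX:103384847-103384997: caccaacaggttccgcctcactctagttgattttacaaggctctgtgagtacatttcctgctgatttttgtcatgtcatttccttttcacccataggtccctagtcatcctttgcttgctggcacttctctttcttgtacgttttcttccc
Eno1 holds the 7-base core on both strands, Gpi1, Bnip3 and Aldoa hold it once, and these letters are not in the Pgk1 window, whose peak was the strongest. Searched on both strands, the core was in the window of 22 of the 44 peaks (50.0%) and of 36.1% of all 22494 peaks. The core preceded by TGC, a longer part of the Maf element, was in 4 of the 44 (9.09%), those of Gpi1, Pfkp, Bnip3 and Higd1a, and in 6.4% of all peaks. A match is a description of the sequence and does not show that it was bound.

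Promoters were read for the letters ACGTG, a common form of the core of the element that HIF binds, since most of these genes are known HIF targets. Other forms of that core were not searched for, so a promoter without ACGTG may still hold such an element. They were taken from RefSeq (GRCm38.p6), with 250 bases before and 50 after each annotated start, and 35 of the 36 genes matched, Ero1l under its newer symbol Ero1a. For 4 genes that rose, picked to show these letters after the search, 1 promoter each is printed on the strand of the gene, with ACGTG or its reverse complement CACGT in capitals.
Ldha promoter, chr7:46845554-46845853: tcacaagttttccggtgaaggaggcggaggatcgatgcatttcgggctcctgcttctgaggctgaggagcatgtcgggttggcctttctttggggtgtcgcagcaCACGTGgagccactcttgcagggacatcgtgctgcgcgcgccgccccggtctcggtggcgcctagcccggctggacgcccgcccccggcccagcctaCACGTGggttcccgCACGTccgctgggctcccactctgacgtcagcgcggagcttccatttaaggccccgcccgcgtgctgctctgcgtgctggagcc
Slc16a3 promoter, chr11:120948817-120949116: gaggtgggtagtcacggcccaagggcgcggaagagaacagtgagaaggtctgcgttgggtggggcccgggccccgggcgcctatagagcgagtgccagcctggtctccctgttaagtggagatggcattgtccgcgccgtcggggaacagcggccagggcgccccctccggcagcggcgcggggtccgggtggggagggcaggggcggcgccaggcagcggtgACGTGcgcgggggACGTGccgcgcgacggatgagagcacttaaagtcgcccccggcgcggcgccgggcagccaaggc
Bnip3 promoter, chr7:138909457-138909756: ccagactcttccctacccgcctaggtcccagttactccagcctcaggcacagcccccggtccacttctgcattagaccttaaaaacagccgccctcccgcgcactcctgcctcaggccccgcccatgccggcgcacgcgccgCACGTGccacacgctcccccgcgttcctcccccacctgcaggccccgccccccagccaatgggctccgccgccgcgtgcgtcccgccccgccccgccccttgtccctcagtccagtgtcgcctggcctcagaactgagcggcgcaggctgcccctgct
Pgk1 promoter, chrX:106186850-106187149: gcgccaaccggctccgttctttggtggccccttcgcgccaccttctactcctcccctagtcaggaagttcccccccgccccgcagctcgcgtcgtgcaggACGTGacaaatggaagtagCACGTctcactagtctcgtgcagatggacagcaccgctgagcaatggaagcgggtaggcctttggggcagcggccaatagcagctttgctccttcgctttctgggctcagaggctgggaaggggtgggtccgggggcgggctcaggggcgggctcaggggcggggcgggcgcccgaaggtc
Ldha carries 2 copies of the palindrome CACGTG, which holds ACGTG on each strand and is also the E-box that Myc binds, and 1 further CACGT. Bnip3 carries the palindrome once, Slc16a3 has ACGTG at 2 places, and Pgk1 has it once on each strand. On either strand ACGTG was in 29 of the 49 member promoters (59.2%) and in 19.6% of all 32851 promoters. Counted by gene it was in 26 of 35 (74.3%), against 21.8% of all 27025 genes with a promoter. These include genes not expressed in these cells, and the promoters were not matched for expression or base composition. The shares are therefore a description, and the difference between them was not tested. The palindrome CACGTG, which overlaps it, was in 14.3% of member promoters and 7.15% of all, and TGAGTCA in 2.04% of member promoters and 5.2% of all. No copy of ACGTG was in the promoters of Gpi1, Pfkl, Tpi1, Pfkp or Eno1, which rose, or of Eno2 or Ldhb, which fell. It was also absent from those of Pdk1 and Pfkfb4, which were not called, and from that of a second annotated start of Ldha. Pdk2, which fell, and Ldha, which rose, each had a promoter with CACGTG. Whether these letters bear on the changes was not tested.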

How the data were processed

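RNA was sequenced in 10 libraries, 50 bp reads from 200 ng of total RNA per the labels' protocols. The deposited FPKM values were made by the authors with TopHat and Cufflinks on mm9 from unique reads, per the labels' protocols and the submitters' processing notes; their versions and the gene annotation were not given in the sources used here. The column is FPKM per the file headers, where RPKM or FPKM had been assumed. Loci were joined on symbol and position, because the files list them in different orders, and 72 loci with a failed estimate in an iTreg library were dropped. Deposited values imply whole reads for 73.6 to 78.4% of low loci (within 0.02), so no count test was run, and depth was estimated from the deposited bounds, which cover counting error only.

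Bach2KO iTreg libraries were set against WT ones by limma 3.58.1 under R 4.3.3 (eBayes with trend) on log2(FPKM + 0.5) for loci with a mean of at least 0.5 FPKM, two-sided, with Benjamini-Hochberg adjustment over all 11403 loci and a threshold of 0.05. The fit was tested on simulated data. Comparisons with the naive library used loci at a mean of at least 0.5 FPKM in the groups compared, and fold differences were counted from 2-fold. Same-numbered libraries did not deviate together (r = −0.038, −0.039 and 0.0051), so they were not paired in the main fit. Whether libraries of the same number were made together is not stated, and with 3 libraries per genotype this check cannot exclude it.

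Peaks were called with MACS 1.4.0beta from 8992019 ChIP tags and 9999999 input tags at a p-value cutoff of 1e-05, per the file headers, and the submitters' processing notes name Bowtie and mm9. The tag count, the score (10 times −log10 of the p-value), the fold enrichment (a ratio) and the FDR in percent of each peak are the authors' deposited values, per the file headers. The input has no values of its own here. Gene starts came from the GENCODE vM1 annotation of the same build. Whether reads were counted by strand is not given, so overlapping genes may share reads.

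The 36 genes and the other gene lists were chosen with earlier results of these data known. Every library's value is given for Bach2, for the 2 genes of each role with the largest difference, for genes that fell or were not called, and for Hif1a, Slc2a1, Hk2, Ldha and Vegfa; other pathway genes are named by the largest called differences, up to 3 per list, with Pkm, Myc, Txnip, Vhl and Arnt in any case. Alternatives were pseudocounts of 0.1 and 1, no filter or 2 FPKM, quantile normalization, equal sums, eBayes settings, a replicate block, leaving out each library, other peak windows and thresholds. Where values outside this rule are named, they were chosen after their values were seen.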

Additional observations from a re-analysis of the deposited data

How the results depend on the processing

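The 30 rises among the 36 genes came to between 29 and 31 under every scaling, pseudocount, filter, eBayes and leave-one-out alternative. Against WT replicate 2 alone the median difference of the 36 genes was 2.23. The count of falls was less stable: 3 as reported, 1 with no filter on low values, and 1 to 3 on leaving out each library. Samples of the same number did not deviate together, and with the replicate number as a block 30 genes rose and 1 fell, the block changing the calls of Eno2 and Ldhb, each with an adjusted p of 0.083 in limma. Pfkfb4 turned to −0.12 under quantile normalization, −0.15 with equal sums, and ranged from −0.052 to 0.18 on leaving out each library. The 8 genes 2-fold above naive in WT iTreg cells were 4 under quantile normalization and 14 at 1.5-fold, and the 1 below was 2 and 3. In Bach2KO iTreg cells the 0 genes 2-fold below naive were 2 under quantile normalization and 1 with equal sums. Genes with a peak went from 22 to 13 when the summit had to lie within 5 kb of a gene start, an alternative chosen after seeing the data. Of the single-gene differences under alternatives, 544 kept direction and side of the threshold, 24 lost the call, 4 gained it and 3 changed sign. The causes were not tested. Depth limits Eno2, with 60 to 130 reads per iTreg library, and Hk2 and Aldoc in WT and naive cells.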
